A study of Mus musculus with 19 samples.

Results

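The 10 genes described here encode the core of Polycomb repressive complex 2 (Ezh1, Ezh2, Eed, Suz12 and its accessory partner Jarid2) and the enzymes that write, copy or oxidise DNA methylation (Dnmt1, Uhrf1, Dnmt3a, Dnmt3b and Tet1). They were chosen by symbol from a table of gene expression, in which all 10 of the 10 were found among 47643 symbols and all 10 were among the 13520 genes that reached the level set for testing, at least 1 TPM in at least 4 libraries. TPM is a transcript level divided by transcript length and scaled to the same total in every library. RNA sequencing was done on mouse cortex at E14.5 (embryonic day). Controls were wildtype, and the mutant genotype was GFAP::Cre; SmoM2: Cre under a GFAP promoter turns on SmoM2, a form of the Hedgehog signal transducer Smoothened that is always active. There were 6 dorsal and 5 medial control libraries, and 4 dorsal and 4 medial mutant libraries.

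Polycomb repressive complex 2 (PRC2) places methyl groups on lysine 27 of histone H3, a mark of silenced genes; in the developing cortex it is known for setting the pace at which progenitors change the cells they make. Dnmt1, brought to newly copied DNA by Uhrf1, restores methylation after each round of replication, whereas Dnmt3a and Dnmt3b add methylation to unmarked DNA and Tet enzymes begin its removal. Replication-coupled enzymes are therefore usually more abundant in dividing cells, and Dnmt3a and Ezh1 are known from non-dividing cells such as neurons.

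In mutant cortex the genes moved in both directions within each complex or pathway. Uhrf1 and Dnmt1 rose in both regions, by log2 changes between 0.39 and 0.83, and the PRC2 core genes Suz12 and Eed rose by 0.18 to 0.29. Jarid2, Dnmt3a and Tet1 fell in both regions, by log2 changes of -0.18 to -0.39. Ezh2, Ezh1 and Dnmt3b did not pass the test in either region.

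Gli1, a direct target of Hedgehog signalling, reached at most 1.08 TPM in any control library and at least 24.3 TPM in every mutant library, so each library matched the genotype on its label. Emx1, which marks the cortex, was at 101.5 TPM or more in every library. Between 17357 and 18670 genes were above 0 per library, and each library sums to 1000000 TPM, so the sequencing depth is unknown. Levels of X-linked and Y-linked transcripts marked 3 of the 6 control embryos as female and all 4 mutant embryos as male, so sex was not balanced between the genotypes. Here an embryo means the libraries that share a genotype and title number, and no label states this. Summed genes of meninges and choroid plexus reached 966 TPM in control medial library 4 and 211 TPM in mutant medial library 3, against 4.99 to 63.7 TPM in the other 17 libraries. Genes of S phase, in which DNA is copied, summed to 1982 to 2319 TPM in control dorsal and 3408 to 4353 TPM in mutant dorsal cortex, and to 2418 to 2718 TPM in control medial and 3989 to 4526 TPM in mutant medial cortex, with no overlap between genotypes in either region. The median sum of pan-neuronal genes was 6740 TPM for control dorsal and 5428 TPM for mutant dorsal libraries, and 5019 and 3729 TPM for medial libraries. The dorsal sums overlapped, at 6000 to 7219 TPM in controls and 3827 to 6310 TPM in mutants. The medial sums did not, at 4501 to 5487 TPM in controls and 2845 to 3994 TPM in mutants. The part of these sums in the changes below was not tested. In bulk tissue, fewer cells of a type and less RNA per cell cannot be told apart, and cells that never carried active Cre are part of each mutant sample.

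**Figure D1:**
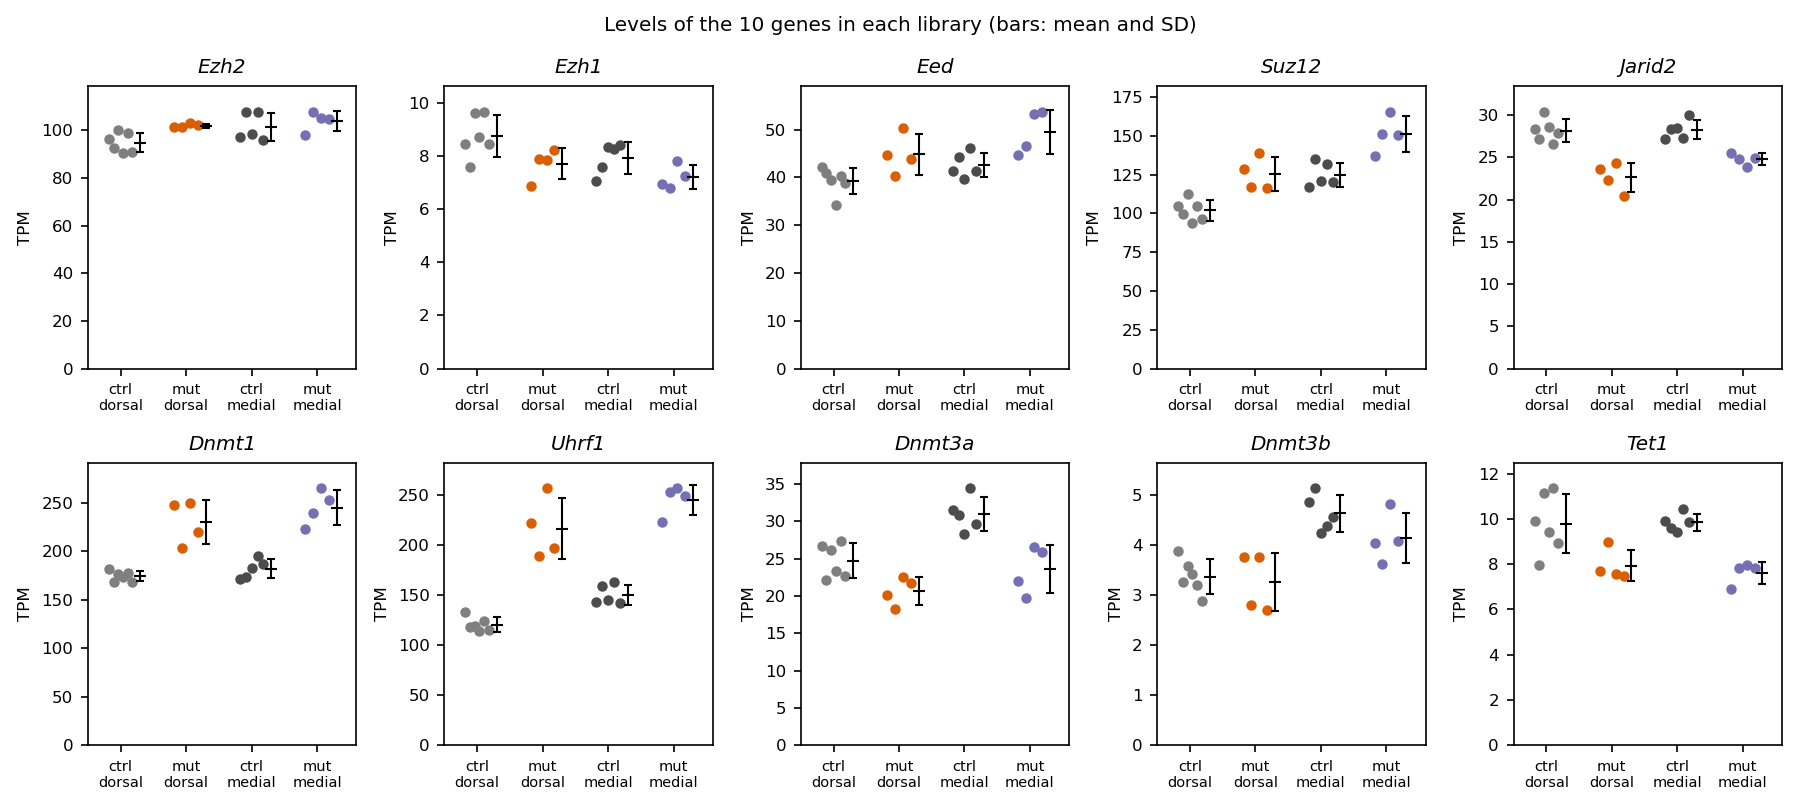
Level of each of the 10 genes (TPM, linear axis from 0) in the 19 libraries, by genotype (ctrl, wildtype; mut, GFAP::Cre; SmoM2) and region; each point is 1 library and the bar beside it is the group mean with its SD. Uhrf1 and Dnmt1 lie higher in every mutant library than in every control library of the same region, Ezh2 spans only 90.7 to 108 TPM in all, and Jarid2 in mutant libraries lies below every control library.

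Levels across genes can be compared because TPM is per length. Averaged over the 19 libraries, Dnmt1 was the most abundant of the 10 at 203 TPM, above 94.2% of the genes tested. It was followed by Uhrf1 at 175, Suz12 at 123 and Ezh2 at 100.03 TPM. Eed averaged 43.5 TPM, Jarid2 26.3 and Dnmt3a 25.3 TPM. Tet1 at 8.95, Ezh1 at 7.99 and Dnmt3b at 3.84 TPM were the least abundant, and Dnmt3b lay above only 18.1% of the genes tested. The paralog pairs were thus of very unequal level: Ezh2 stood 10.2- to 15.9-fold above Ezh1 in single libraries, and Dnmt3b reached at most 0.186 of the Dnmt3a level.

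Changes between genotypes were tested by limma on log2(TPM + 1), with p-values adjusted by the Benjamini-Hochberg method over all 13520 genes and a threshold of 0.05; each log2 change is followed by its standard error. In dorsal cortex 4 of the 10 genes rose, 3 fell and 3 did not pass, where 37.5% of all tested genes passed (9.93% higher and 27.6% lower). In medial cortex the counts were again 4 higher, 3 lower and 3 not passing, and the same 7 genes passed in both regions, where 39.6% of all tested genes passed (9.44% higher and 30.2% lower). The 3 genes that fell are near the share of genes that fell among all tested, and the 4 that rose are above the share that rose among all tested. With male libraries only, an alternative chosen after seeing the data, 3 rose and 2 fell in each region by limma, where 6.34% of all tested genes rose and 14.9% fell dorsally and 5.66% rose and 17.2% fell medially. Eed did not pass in either (adjusted p = 0.263 and 0.214), nor did Dnmt3a dorsally (0.0838) and Jarid2 medially (0.0758). The median log2 change of the 10 genes was 0.03 dorsally and -0.04 medially, against -0.10 and -0.11 over all tested genes. A dorsal library and the medial one with its number deviated together from their groups (r from 0.549 to 0.795 in 9 pairs), so the regions are not independent of each other. Libraries of both genotypes did not overlap for 4 higher and 1 lower of the 10 genes dorsally (24.8% of all tested genes did not overlap: 7.25% higher, 17.6% lower) and for 3 higher and 3 lower medially (30.4%: 7.63% higher, 22.7% lower).

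Uhrf1, the protein that reads hemimethylated DNA and recruits Dnmt1, had the largest log2 change of the 10. Its dorsal control libraries ranged from 114 to 133 TPM with a median of 119, and the mutant dorsal libraries read 222, 188, 257 and 197 TPM. Its medial control libraries read 143, 159, 145, 163 and 142 TPM, and the mutant medial libraries 223, 253, 257 and 249 TPM. Every mutant library of a region was above every control library, and even the lowest mutant library exceeded the highest control library of either region. The log2 change was 0.83 ± 0.07 in dorsal cortex (limma adjusted p = 1.24e-07) and 0.70 ± 0.08 in medial cortex (adjusted p = 1.86e-06).

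Dnmt1, the maintenance methyltransferase, rose in both regions. Its dorsal control libraries ranged from 168 to 181 TPM with a median of 175, and its mutant dorsal libraries read 247, 203, 249.6 and 219 TPM. In medial cortex the controls read 171, 174, 183, 195 and 187 TPM and the mutants 223, 239, 265 and 252 TPM. No mutant library overlapped a control library in either region. By limma the log2 change was 0.39 ± 0.06 dorsally (limma adjusted p = 4.56e-05) and 0.42 ± 0.06 medially (adjusted p = 3.53e-05).

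Suz12, which holds PRC2 together, rose in both regions. Its dorsal control libraries ranged from 93.4 to 113 TPM with a median of 102, and the mutant dorsal libraries read 129, 117, 139 and 117 TPM. In medial cortex the controls read 117, 135, 121, 132 and 120 TPM and the mutants 137, 151, 165 and 150 TPM. The groups did not overlap, although in both regions the lowest mutant library stood close to the highest control library. On the log2 scale it changed by 0.29 ± 0.06 dorsally (limma adjusted p = 0.00157) and 0.27 ± 0.07 medially (adjusted p = 0.00330).

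Eed, the subunit that binds the methylated histone and stimulates the enzyme, rose by the least of the 4 genes. Its dorsal controls ranged from 34.2 to 42.1 TPM with a median of 39.9, and the dorsal mutants read 44.6, 40.2, 50.4 and 44.0 TPM. Its medial controls read 41.4, 44.3, 39.7, 46.1 and 41.4 TPM, and the medial mutants 44.7, 46.5, 53.2 and 53.8 TPM. The groups overlapped in both regions. Its log2 change was 0.18 ± 0.07 dorsally (limma adjusted p = 0.0466) and 0.21 ± 0.07 medially (adjusted p = 0.0265). With a term for sex the adjusted p of Eed became 0.152 and 0.124, and it passed in only 9 of 19 fits dorsally and 14 of 19 medially that each left out 1 library. The dorsal call was lost without control dorsal 3, 4, 5 or 6, mutant dorsal 1, 3 or 4, or control medial 2, 3 or 6 (adjusted p up to 0.199), and the medial one without control medial 2, 4 or 6 or mutant medial 3 or 4 (up to 0.0951).

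Ezh2, the main catalytic subunit, had nearly the same level in all libraries. Its dorsal controls ranged from 90.7 to 100.1 TPM with a median of 94.5, and the dorsal mutants read 101, 101.5, 103 and 102 TPM. Its medial controls read 97.4, 107.7, 98.3, 107.9 and 96.2 TPM, and the medial mutants 98.0, 107.7, 105 and 105 TPM. The dorsal groups did not overlap and the medial groups did. The log2 change was 0.10 ± 0.04 dorsally (limma adjusted p = 0.0562, 95% interval 0.02 to 0.19) and 0.04 ± 0.04 medially (adjusted p = 0.553, interval -0.06 to 0.13). When libraries were rescaled by the median ratio, which moves the median of all genes from -0.10 dorsally and -0.11 medially to -0.02 in each region, Ezh2 passed, at 0.20 (adjusted p = 0.00128) dorsally and 0.14 (adjusted p = 0.0164) medially. With the embryo as a block the dorsal value also passed (adjusted p = 0.0426), as it did without control dorsal 3 or 5, control medial 5 or mutant medial 1 (0.0374 to 0.0477).

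Ezh1, the alternative catalytic subunit, averaged 8.75 ± 0.792 TPM (SD, n = 6) over the dorsal controls and 7.71 ± 0.583 TPM (n = 4) over the dorsal mutants, and 7.93 ± 0.593 TPM (n = 5) and 7.20 ± 0.459 TPM (n = 4) medially. The groups overlapped, and its log2 changes of -0.16 ± 0.07 (limma adjusted p = 0.0918) and -0.12 (adjusted p = 0.218) did not pass, the dorsal one passing only without control dorsal library 2 (adjusted p = 0.0385).

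Jarid2, which helps bring PRC2 to its sites, fell in both regions. Its dorsal controls ranged from 26.6 to 30.4 TPM with a median of 28.1, and the dorsal mutants read 23.6, 22.4, 24.3 and 20.4 TPM. Its medial controls read 27.2, 28.4, 28.5, 27.3 and 30.01 TPM, and the medial mutants 25.5, 24.9, 23.9 and 24.96 TPM. No mutant library reached any control library of either region. Its log2 change was -0.30 ± 0.05 dorsally (limma adjusted p = 1.39e-04) and -0.18 ± 0.05 medially (adjusted p = 0.00941), but after median-ratio rescaling the medial value was -0.08 and no longer passed (adjusted p = 0.280).

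Dnmt3a, the de novo methyltransferase of maturing neurons, fell. Its dorsal controls ranged from 22.1 to 27.4 TPM with a median of 24.8, and the dorsal mutants read 20.2, 18.2, 22.6 and 21.7 TPM. Its medial controls read 31.5, 30.8, 28.3, 34.5 and 29.7 TPM, and the medial mutants 22.0, 19.8, 26.6 and 25.9 TPM. The dorsal groups overlapped and the medial groups did not. Mutant differed from control on the log2 scale by -0.25 ± 0.09 dorsally (limma adjusted p = 0.0313) and -0.39 ± 0.09 medially (adjusted p = 0.00242), and the dorsal call was lost after median-ratio rescaling (-0.16, adjusted p = 0.147) and without control dorsal 1, 3 or 5 or mutant dorsal 1 or 2 (adjusted p from 0.0610 to 0.110).

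Dnmt3b, its embryonic paralog, averaged 3.37 ± 0.344 TPM (SD, n = 6) over the dorsal controls and 3.26 ± 0.580 TPM (n = 4) over the dorsal mutants, and 4.63 ± 0.368 (n = 5) and 4.14 ± 0.498 TPM (n = 4) medially. The groups overlapped in both regions and neither change passed (log2 change -0.04 ± 0.09, limma adjusted p = 0.748, and -0.13, adjusted p = 0.291).

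Tet1, which oxidises methylated cytosine, fell. Its dorsal controls ranged from 7.96 to 11.4 TPM with a median of 9.67, and the dorsal mutants read 7.71, 8.97, 7.57 and 7.49 TPM. Its medial controls read 9.89, 9.60, 9.42, 10.4 and 9.87 TPM, and the medial mutants 6.88, 7.82, 7.94 and 7.82 TPM. The dorsal groups overlapped and the medial groups did not. In log2 terms the change was -0.27 ± 0.08 dorsally (limma adjusted p = 0.0163) and -0.33 ± 0.09 medially (adjusted p = 0.00488), and the dorsal call was lost after median-ratio rescaling (-0.18, adjusted p = 0.0637) and without mutant dorsal 3 (adjusted p = 0.0514).

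Uhrf1 was the only gene of the 10 to rise within the range of the S phase genes. All 30 S phase genes on a list passed in both regions, with log2 changes from 0.51 to 1.23 dorsally (median 0.83) and 0.44 to 1.13 medially (median 0.71). Uhrf1 lay above 15 of the 30 in each region, and each of the other 9 genes lay below all 30. The summed level of the S phase genes was also higher in mutant cortex, as given above. Its relation to the rise of Uhrf1, Dnmt1, Suz12 and Eed was not tested.

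**Figure D2:**
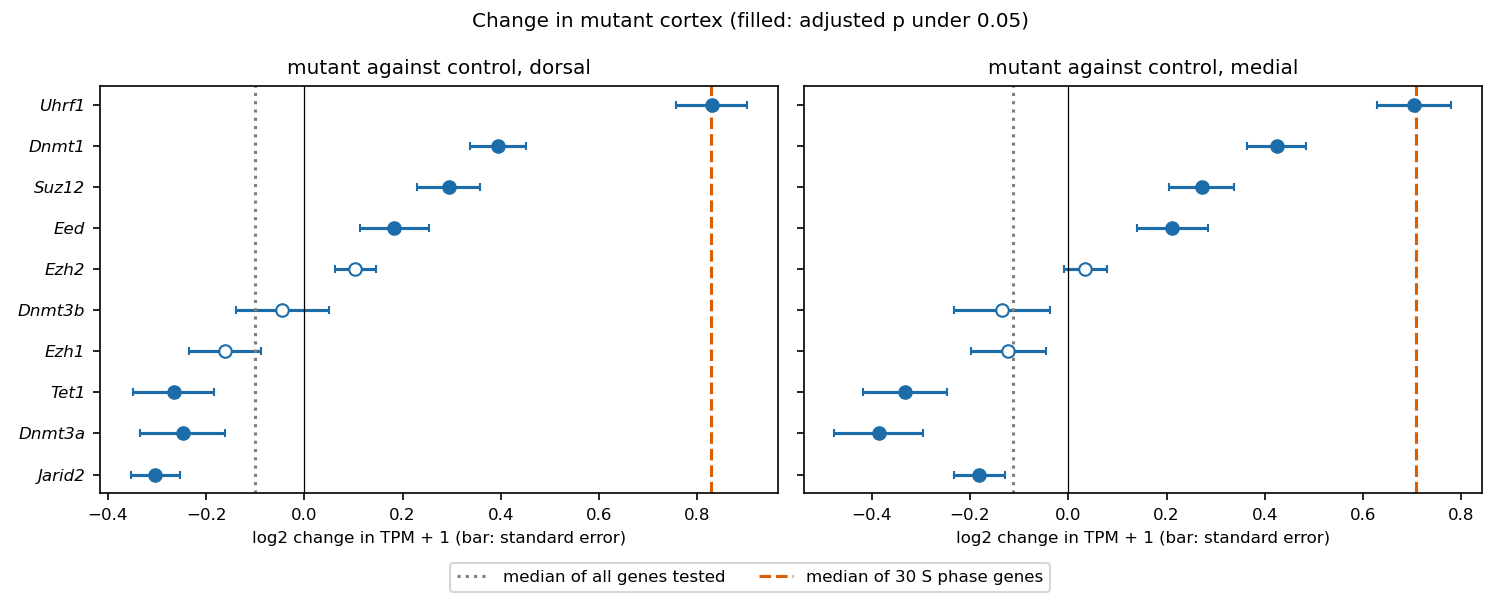
Change of each gene in mutant against control cortex, dorsal on the left and medial on the right (x axis, log2 change in TPM + 1; points, limma estimates; bars, standard errors; filled, adjusted p under 0.05). Uhrf1 sits on the dashed line, the median of the S phase genes (0.83 and 0.71), the other 3 genes that rose sit between it and 0, and the dotted line marks the median of all tested genes (-0.10 and -0.11).

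The response in the 2 regions was compared directly. For the difference of the medial and dorsal effects 0 of the 10 genes passed with limma, where 0.0074% of all tested genes passed (1 gene). At an unadjusted p under 0.05 there were 0 of the 10 and 451 of all 13520 genes. With the embryo as a block in the limma fit, 0 of the 10 and 49 of all genes passed. That fit had 1 of the 10 and 1255 of all genes at an unadjusted p under 0.05. In the main fit, the 95% interval of the difference for Uhrf1 ran from -0.35 to 0.09 and for Dnmt3a from -0.40 to 0.12. A regional difference within these limits could not be told from 0.

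The balance between paralogs was compared as the ratio of their TPM in each library, for 4 exact two-sided permutation tests of the log2 ratio with p adjusted over them. The Ezh2 to Ezh1 ratio in dorsal cortex averaged 10.9 ± 0.771 (SD, n = 6) for controls and 13.3 ± 1.00 (n = 4) for mutants, a difference of 0.27 ± 0.06 on the log2 scale of TPM + 1, with an exact p of 0.00476, the smallest the 210 splits can give (adjusted p = 0.0190). In medial cortex it ran from 11.4 to 14.2 in the 5 controls and from 13.5 to 15.9 in the 4 mutants, a log2 difference of 0.16 with an exact p of 0.103. The dorsal groups did not overlap and the medial groups did, and the difference between regions was not tested. The Dnmt3b to Dnmt3a ratio was 0.150 ± 0.0145 (n = 5) in control and 0.176 ± 0.0123 (n = 4) in mutant medial cortex, a log2 difference of 0.25 ± 0.08 with an exact permutation p of 0.0238 (adjusted p = 0.0476), and 0.137 and 0.158 in dorsal cortex with an exact p of 0.0810. The medial p rose to 0.0536 without mutant medial 2 and to 0.0571 without control medial 2, 4, 5 or 6, and without mutant dorsal 4 the dorsal difference was 0.29 with an exact p of 0.0119.

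A pair of further ratios among the DNA methylation genes is given as description. Dnmt1 stood 7.07 ± 0.467-fold above Dnmt3a in control dorsal cortex (SD, n = 6) and 11.1 ± 0.876-fold in mutant dorsal cortex (n = 4), and 5.89 ± 0.456-fold and 10.5 ± 1.08-fold in medial cortex (n = 5 and 4). The highest control library was at 7.59 and the lowest mutant library at 9.74. Uhrf1 reached 0.692 of the Dnmt1 level in control dorsal, 0.938 in mutant dorsal, 0.827 in control medial and 1.00 in mutant medial cortex.

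**Figure D3:**
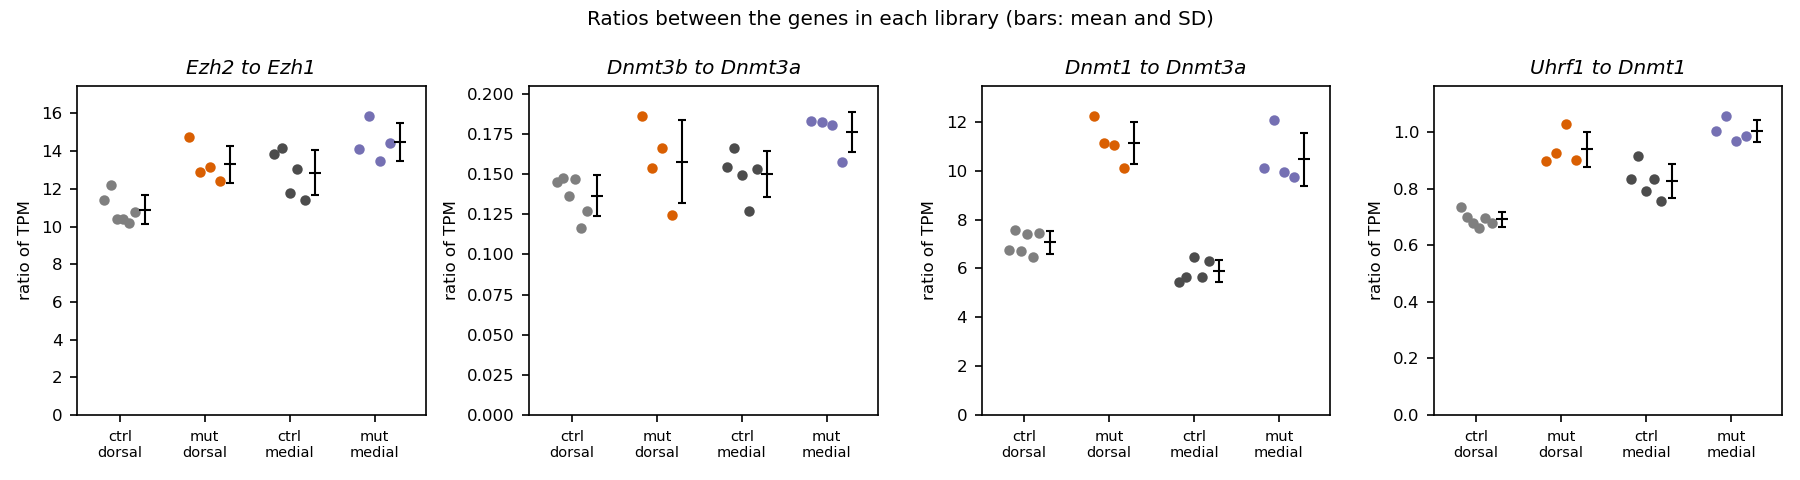
Ratios of TPM between genes in each of the 19 libraries, by group (points, libraries; bars, mean and SD; linear axes from 0). The Dnmt1 to Dnmt3a ratio runs from 5.43 to 7.59 in control and from 9.74 to 12.2 in mutant libraries.

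Medial and dorsal cortex differed in the controls too. With limma, 4 of the 10 genes were higher in medial than in dorsal control cortex and 0 were lower, where 32.4% of all tested genes passed (17.6% higher and 14.9% lower): Dnmt3b by a log2 change of 0.37, Uhrf1 by 0.32, Dnmt3a by 0.31 and Suz12 by 0.29. Each of these 4 was higher in the medial library of 5 of 5 control embryos, as were Ezh2 and Eed, which did not pass. The share of all tested genes at 5 of 5 is not given here. For the 4 genes that passed, the groups of libraries did not overlap (20.5% of all tested genes did not: 11.1% higher and 9.39% lower). In mutant cortex 1 gene, Suz12, passed (0.27, adjusted p = 0.0128), where 18.8% of all tested genes passed (8.03% higher and 10.8% lower). That call was lost without mutant dorsal 2 or 4 or mutant medial 3 (adjusted p from 0.0542 to 0.0583), fits in which 8.42%, 10.1% and 9.65% of all genes passed. Without mutant dorsal 3 the count was 4, where 27.2% of all genes passed. With the title number as a block it was 2 (23.7% of all genes), and with only the 2 mutant groups in the limma fit 0 of the 10 genes and 0.0% of all genes passed, against 1 of the 10 and 3643 of all genes at an unadjusted p under 0.05. With the embryo as a block in the limma fit, 7 genes passed in control cortex (48.9% of all genes), adding Ezh2 (0.10, adjusted p = 0.00444), Eed (0.12, adjusted p = 0.0308) and Ezh1, which was lower (-0.13, adjusted p = 0.0437). In mutant cortex 6 genes passed with the block (39.1% of all genes): Suz12, Dnmt3b, Uhrf1, Jarid2, Dnmt3a and Eed, all higher medially. With male libraries only, 0 of the 10 genes passed in control cortex (0.074% of all genes) and 4 had an unadjusted p under 0.05 by limma, where 3 dorsal and 2 medial libraries remain, although the log2 changes stayed at 0.29 to 0.35 for the 4 genes. Of the S phase genes, 25 of 30 were higher in medial control cortex and 7 in medial mutant cortex, and their part in these differences was not tested. Dnmt1 was higher medially in 4 of 5 control embryos, Jarid2 and Tet1 each in 2 of 5 and Ezh1 in 0 of 5.

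The genes also varied together between libraries of the same group. After subtracting group means, Suz12 and Uhrf1 correlated at r = 0.824 over the 19 libraries, Eed and Uhrf1 at 0.797, Ezh2 and Suz12 at 0.769 and Dnmt1 and Uhrf1 at 0.758. Dnmt1 and Dnmt3a were correlated at 0.618 within groups but at -0.377 over all libraries, in which mutants have more Dnmt1 and less Dnmt3a. The lowest within-group value was -0.14 for Ezh1 and Dnmt3b. These are descriptions over 19 libraries that share embryos, RNA preparation and the fixed TPM total.

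For each gene that passed in both regions, the 3 genes with the highest correlation of log2(TPM + 1) over the 19 libraries were listed, across 4 groups of unequal means. For Uhrf1 these were Birc5 (r = 0.995), Wdhd1 (0.994) and Mcm5 (0.994), of which Mcm5 is a subunit of the replicative helicase. For Dnmt1 they were Mybl2 (0.965), a cell cycle transcription factor, Olig3 (0.965) and Hdgf (0.964). For Suz12 they were Hus1, Lims1 and Ppat (0.969 to 0.972), and for Eed they were Sec23b, Nudt5 and Api5 (0.944 to 0.956). For Jarid2 they were Ddx54, Snx19 and Pdpr (0.924 to 0.961), for Dnmt3a Amotl1, Bach2 and Caskin2 (0.964 to 0.968) and for Tet1 Rev3l, Zfp398 and Naa30 (0.953 to 0.969).

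The promoters were searched for E2F motifs because S phase genes, many of which are known E2F targets, were also higher in mutant cortex. Whether the 4 genes that rose share a cause with them was not tested. The letters searched were TTCGCGC as well as TTGGCGC, and then also TTCCCGC together with TTGCCGC, each on both strands of RefSeq promoter windows of 300 bases (250 before to 50 after a start site, GRCm38.p6), with 16 windows for the 10 genes. Of the 10 genes, 4 held at least 1 of them: Suz12, Uhrf1, Dnmt1 and Ezh2. The motifs were found in 9.57% of all 32851 windows, in 19.95% of the 9979 tested genes with a window and in 13 of 21 (61.9%) S phase genes with a window. Eed, Ezh1, Jarid2, Dnmt3a, Dnmt3b and Tet1 had no match. A match says only that these letters are in the window. Ezh2, which holds a match, did not pass the main test but passed after median-ratio rescaling. Eed, which holds none, passed the main test but not with a term for sex. Whether E2F acts on any of these genes was not tested. The matches are shown with 10 bases on either side where the window allows, with the motif, read on the strand of the gene, in capitals.
Ezh2, chr6:47595010-47595036, minus strand, 5' untranslated region: gttgctgcgtTTGGCGCtcggtccggt
Dnmt1, chr9:20952826-20952852, minus strand, start site 3 of the table: gtttccgcgcGCGCGAAaaagccgggg
Dnmt1, chr9:20952574-20952599, minus strand, start site 3 of the table: ggggcagcgtTTGGCGCgggctgtgc
Uhrf1, chr17:56303279-56303305, plus strand, upstream of the gene: gctttctcgcTTCCCGCcacagcgcca
The Dnmt1 window of start site 3, inside the gene, holds 3 matches, of which the one not shown lies in a coding exon, and the other two Dnmt1 windows hold none. The 250 bases before the start sites of Suz12 and of the second Uhrf1 window, which lies in an intron, follow. CpG is the dinucleotide that the Dnmt enzymes methylate.
Suz12, chr11:79992856-79993105, plus strand: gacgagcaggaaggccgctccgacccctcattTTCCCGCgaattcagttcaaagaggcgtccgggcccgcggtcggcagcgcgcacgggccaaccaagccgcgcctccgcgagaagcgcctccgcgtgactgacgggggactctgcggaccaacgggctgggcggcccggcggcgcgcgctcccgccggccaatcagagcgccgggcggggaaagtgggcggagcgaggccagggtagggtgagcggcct
Uhrf1, chr17:56304063-56304312, plus strand: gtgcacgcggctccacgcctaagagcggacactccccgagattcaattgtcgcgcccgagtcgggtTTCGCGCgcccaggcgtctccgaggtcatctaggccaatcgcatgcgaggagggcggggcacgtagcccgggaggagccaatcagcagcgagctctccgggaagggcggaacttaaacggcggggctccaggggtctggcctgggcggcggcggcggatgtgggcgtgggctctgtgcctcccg
The 300-base windows of Suz12 and of the second Uhrf1 start hold 41 and 33 CpG dinucleotides, against a median of 7 over all windows. Among the windows of the 10 genes, those with a match held 12 to 41 CpG and those without one 2 to 47.

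On GRCm38 (GENCODE M21) Uhrf1 spans chr17:56303321-56323486, Dnmt1 chr9:20907209-20959888, Suz12 chr11:79993106-80034123 and Eed chr7:89954654-89980983. Ezh2 spans chr6:47530139-47595341, Ezh1 chr11:101191115-101226463, Jarid2 chr13:44729474-44921643, Dnmt3a chr12:3806007-3914443, Dnmt3b chr2:153649450-153687730 and Tet1 chr10:62804570-62908996. Noncoding genes on the opposite strand overlap exons of Dnmt3a, Eed, Ezh2 and Suz12; the levels of 3 of them were 0.0671 TPM or lower in every library, and the one over Eed was not matched to the table. Whether strand was used in the counting is not given in the sources used here.

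Other subunits of PRC2 also moved in both directions. Of 7 such subunits in the table, 2 rose and 1 fell in each region. Among all tested genes 9.93% rose and 27.6% fell dorsally, and 9.44% rose and 30.2% fell medially. Rbbp7 and Rbbp4, the histone-binding subunits shared with other complexes, rose by 0.29 and 0.15 dorsally (limma adjusted p = 1.40e-04 and 3.79e-04) and by 0.28 and 0.15 medially (adjusted p = 2.80e-04 and 4.20e-04). Phf1, a Polycomb-like recruiting subunit, fell by 0.48 and 0.59 on the log2 scale (limma adjusted p = 0.00476 and 0.00135). With male libraries only, 0 of the 7 subunits fell dorsally, so Phf1 did not pass there, and 1 fell medially. For PRC1, which ubiquitinates histone H2A and reads the mark of PRC2, 1 of 21 genes rose and 5 fell in each region, with medians of -0.11 and -0.12, close to those of all genes. Cbx8 (-0.40 and -0.48) and Pcgf1 (-0.30 and -0.27) were among the genes that fell. After median-ratio rescaling, 2 of the 21 PRC1 genes were higher and 3 lower dorsally, and 3 higher and 2 lower medially. Of all 13520 tested genes, 2109 were then higher and 1920 lower dorsally, and 2179 higher and 2261 lower medially.

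Of the 6 enzymes that remove H3K27 methylation or H2A ubiquitin or assist them, 0 rose and 2 fell in each region. The share of all tested genes that fell was 27.6% dorsally and 30.2% medially. Kdm6a, an X-linked H3K27 demethylase, was at -0.50 in both (limma adjusted p = 0.00771 and 0.00908). Its level in controls was 36.1 TPM in the 3 female and 25.4 TPM in the 3 male dorsal libraries. With a term for sex its change was -0.25 (limma adjusted p = 0.00552) dorsally and -0.20 (adjusted p = 0.0291) medially. With male libraries only, 0 of the 6 enzymes were lower medially, so Kdm6a did not pass there, and 1 was lower dorsally. Bap1, the H2A deubiquitinase, changed by -0.08 and -0.09 (adjusted p = 0.0117 and 0.00781), and after median-ratio rescaling by 0.01 in each region, where it did not pass. Kdm6b, the paralog of Kdm6a, was at -0.25 and -0.33 and did not pass.

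Of the other 9 tested factors of DNA methylation, 3 rose and 4 fell in each region. All tested genes rose in 9.93% and fell in 27.6% of cases dorsally, and in 9.44% and 30.2% medially. Hells, a remodeller needed for maintenance methylation, rose from 42.1 ± 2.94 to 78.8 ± 9.49 TPM dorsally (SD, n = 6 and 4) and from 56.2 ± 3.89 to 94.5 ± 7.64 TPM medially (n = 5 and 4), with log2 changes of 0.88 and 0.74 (limma adjusted p = 7.24e-08 and 1.41e-06). Cdca7, the partner that brings Hells to chromatin, rose by 0.45 and 0.37 (adjusted p = 3.16e-04 and 0.00198). Uhrf2, the paralog of Uhrf1, was at -0.02 and -0.01 and did not pass, while its paralog did; the difference between them was not tested. Tet2 (-0.28 and -0.28, adjusted p = 0.0416 and 0.0462) and Tet3 (-0.29 and -0.30, adjusted p = 0.0394 and 0.0418) fell with Tet1, and so did Zbtb24 (-0.19 and -0.27, adjusted p = 0.0251 and 0.00402). After median-ratio rescaling 0 of the 4 falls held dorsally and 1, Zbtb24, held medially. With male libraries only, 0 of the 9 factors fell dorsally and 2 fell medially. Among 7 genes of families that hold readers of methylated CpG, 3 rose and 3 fell dorsally, and 2 rose and 1 fell medially. Mbd4 rose by 0.41 and 0.31, Mbd3 by 0.16 and 0.17 and Zbtb38 fell by 0.49 and 0.60. After median-ratio rescaling 3 of these 7 genes rose and 1 fell in each region, and with a term for sex 1 rose and 3 fell medially. Of all 13520 tested genes, the rescaled fit had 2109 higher and 1920 lower dorsally, and 2179 higher and 2261 lower medially. The fit with sex had 1072 higher and 3700 lower medially. The medial rise of Mbd4 did not pass with a term for sex (limma adjusted p = 0.0974) or with male libraries only (0.322), nor the dorsal fall of Zbtb38 with male libraries only (0.116).

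**Figure D4:**
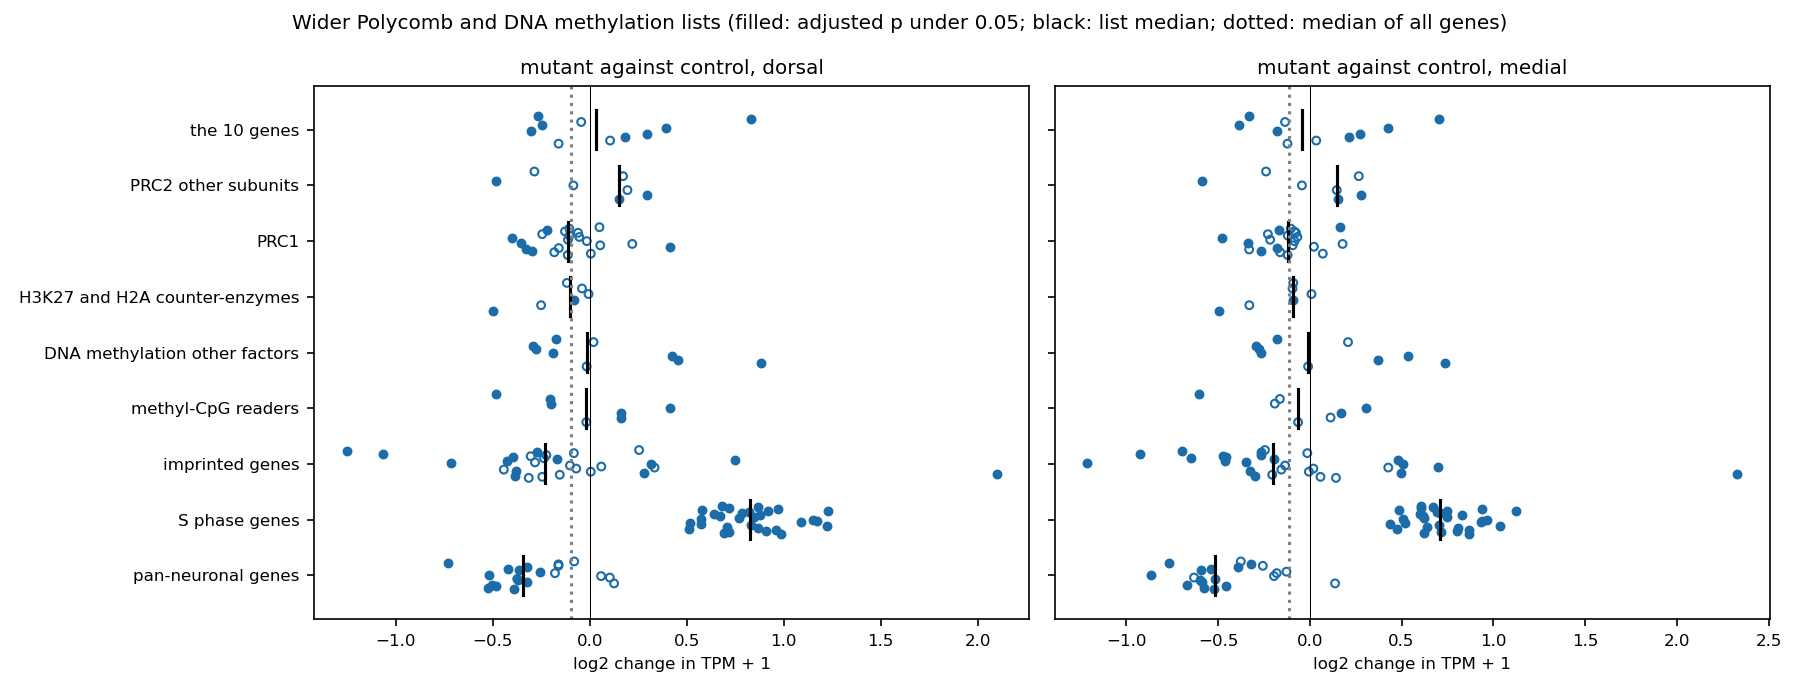
Log2 changes (x axis, TPM + 1) of the tested genes of each list in dorsal (left) and medial (right) cortex; each point is a gene (filled, adjusted p under 0.05), the black tick is the list's median and the dotted line the median of all tested genes. S phase genes lie at 0.44 or above in both panels, and Peg10 stands apart among imprinted genes at 2.10 and 2.33.

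Of the genes that these systems are known to silence, those on the Hox, Cdkn2 and germline lists were mostly at low levels. The imprinted genes were not, and the 30 on a list summed to 2458 to 3517 TPM per library. All 40 Hox and Cdkn2 genes on a list were in the table and none reached 1 TPM in any of the 19 libraries; their highest value was 0.945 TPM for Cdkn2b in mutant medial library 1, and their sum ran from 0.140 to 2.71 TPM. Of 15 germline genes, 2 were tested: Tdrkh was at -0.03 and -0.05 and did not pass, and Brdt was at -0.15 (limma adjusted p = 0.274) and -0.28 (adjusted p = 0.0476), a medial value that did not pass after median-ratio rescaling (0.135), quantile normalization (0.393), with a term for sex (0.0653) or with male libraries only (0.0884). Of 28 tested imprinted genes, 4 rose and 9 fell dorsally and 5 rose and 13 fell medially, with medians of -0.23 and -0.20. Over all tested genes 9.93% rose and 27.6% fell dorsally, and 9.44% rose and 30.2% fell medially. After median-ratio rescaling 5 rose and 8 fell dorsally and 6 rose and 8 fell medially, with medians of -0.15 and -0.10. On that scale 2109 of all 13520 tested genes rose and 1920 fell dorsally, and 2179 rose and 2261 fell medially. Peg10 rose from 4.02 ± 0.512 to 21.1 ± 6.42 TPM dorsally (SD, n = 6 and 4) and from 4.40 ± 0.939 to 26.4 ± 6.23 TPM medially (n = 5 and 4), a log2 change of 2.10 and 2.33 (adjusted p = 7.01e-08 and 6.34e-08). Cdkn1c, an inhibitor of the cell cycle, fell by 0.71 and 1.21 (adjusted p = 7.45e-07 and 4.19e-09), and Rasgrf1 fell by 1.25 and 0.70 (adjusted p = 1.04e-06 and 6.36e-04) on the log2 scale. Methylation of DNA or histones was not measured in these samples.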

How the data were processed

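The deposited values are TPM made by the authors on build mm10, per the submitters' processing notes, from stranded total RNA libraries (RNeasy Micro, TruSeq Stranded Total RNA, per the labels' protocols), 1 column per library. Aligner, quantifier and annotation: not given in the sources used here. Titles placed 19 libraries in 4 groups; the tissue field reads dorsal or medial, whereas the protocol speaks of medial or lateral cortex, and title and description numbers of the medial controls differ (2 to 6 against 1 to 5). No label states that the libraries of a group are separate embryos; p-values then measure only their spread, which may be technical. Depth is unknown from TPM.

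On log2(TPM + 1), a model with 1 mean per group over all 19 libraries was fitted (limma 3.58.1, statmod 1.5.0 for blocks, R 4.3.3) with robust, trended empirical Bayes moderation; genes with 1 TPM or more in 4 libraries (13520) were tested, and 95% intervals come from the same fit. The fit was run on simulated data with independent libraries, so that run does not cover the correlation between dorsal and medial libraries. Figures used matplotlib 3.10.9 and scripts Python 3.11.15. Genes, beyond the 10, were named by rule: up to 3 per related list by smallest adjusted p, and Rbbp4, Rbbp7, Tet2, Tet3, Uhrf2 and Hells. Some genes that the rule names are not reported here. The 10 genes and the lists were chosen with earlier results of these data known. Alternatives were another pseudocount (0.1), no filter, 2 rescalings, only the groups compared, sex as a term, each library left out, 2 replicate blocks and, chosen after seeing the data, male libraries only. Dorsal and medial libraries of a genotype and number correlated in 9 of 9 pairs (r over 0.1 in each), so they were taken as embryos in the block; control and mutant libraries of the same number did not (r from -0.436 to 0.138 in 7 pairs). Sequences are from RefSeq (GRCm38.p6), positions from GENCODE M21.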

Additional observations from a re-analysis of the deposited data

Results flagged for a closer look

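Among 40 groups of libraries (10 genes in 4 groups) checked for a library far from the others, 2 stood out, and chance flags about 1 in 20. Tet1 in mutant dorsal library 2 was at 8.97 TPM, above the other 3 libraries of its group, and Tet1 in mutant medial library 1 was at 6.88 TPM, below the other 3. Without either library Tet1 stayed lower in mutant cortex in the region concerned.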

How the results depend on the processing

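Uhrf1, Dnmt1 and Suz12 passed the test in both regions under all 28 alternatives, as did Jarid2 dorsally and Dnmt3a medially, and none of the 7 genes that passed in both regions changed sign. Dorsally, 1 gene was lower under median-ratio rescaling and 1 under quantile normalization, against 3, and medially 1 under quantile normalization, against 3. In medial against dorsal control cortex, 7 genes passed with the embryo as a replicate block and 0 with male libraries only, against 4. In mutant cortex 6 passed with the embryo block, 2 with the title number as a block (23.7% of all genes) and 0 with only the groups compared (0.0% of all genes), against 1. Across the fits that each left out 1 library the count ran from 0 to 4 there, and the share of all genes from 8.42% to 27.2%. The Dnmt3b to Dnmt3a ratio difference ran from 0.14 to 0.29 dorsally (p from 0.0119 to 0.226) and from 0.20 to 0.30 medially (p from 0.0179 to 0.0571) when 1 library was left out. The block left every count of genes higher or lower by genotype within 1.5 times. Among all genes, dorsal calls were 1343 higher and 3727 lower, against 2109 and 1920 under the median-ratio scale and 1959 and 2173 under the quantile scale; medially 1276 and 4081 became 2179 and 2261, and 2164 and 2275. Under quantile normalization the medial calls of Jarid2 (adjusted p = 0.310) and Tet1 (adjusted p = 0.0750) were lost. The cause of these changes was not tested. With TPM the depth is unknown, so the precision of Dnmt3b, Ezh1 and Tet1, the least abundant genes, cannot be given beyond the spread between libraries.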
